A study of Mus musculus with 25 samples.

Results

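Stem cells of adult mouse skin labelled Tbr were compared with unlabelled stem cells of the same kinds. The Tbr group held 2 RNA libraries, 1 of hair follicle stem cells (HFSCs) and 1 of epidermal stem cells (EpdSCs), and the unlabelled group held 4, with 2 of each kind, so that the comparison used 6 of the 25 samples of the series, which held 21 RNA libraries in all. All 6 libraries came from the skin of female mice of strain B6 at postnatal day 60. Both kinds of cell were sorted as lineage-negative with high integrin alpha-6, the HFSCs being CD34+ and Sca1- and the EpdSCs CD34- and Sca1+. The Tbr libraries carry the sample prefix DS and the unlabelled ones the prefix BK, so library set goes with the label and the effect of one cannot be told apart from that of the other within these libraries. Only genes that moved the same way in both lineages were called, although an effect of library set shared by both lineages would also pass this rule. A further 4 unlabelled, unwounded libraries with the prefix CL, also from female B6 mice at day 60, served as a second reference.

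The labels do not spell out Tbr for the skin libraries. Tumour libraries of the same set carry the label TbrKO, while for the deleted region, the Cre driver and the number of animals per library nothing is given in the sources used here. Nothing in the labels says that the 2 BK libraries of a lineage came from separate mice. The same holds for the Tbr HFSC and EpdSC libraries, which may be sorts of the same skin. Each p-value therefore reflects the spread among these particular libraries, and that spread may be technical. Neither lineage has a replicate Tbr library, so the spread of Tbr libraries within a lineage could not be measured. Agreement in sign between the lineages therefore does not replicate the label. It cannot separate the label from an effect of the animal or of library set. One general note in the labels attaches a wound biopsy to a numbered range of samples that may include the BK libraries, although their own labels name no wound.

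TGF-beta ligands are secreted in a latent complex, bound to latent TGF-beta binding proteins in the matrix, and are released from it by integrins and other activators. The active ligand binds the type II receptor Tgfbr2, which recruits and phosphorylates the type I receptor Tgfbr1. Tgfbr1 then phosphorylates Smad2 and Smad3, which enter the nucleus with Smad4 and change transcription of targets that include the pathway's own inhibitors. In skin the pathway is known for restraining keratinocyte division and for its part in the entry of hair follicle stem cells into the growth phase.

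Promoters of 5 genes that the results turn on are shown here as the 250 bases before the start that RefSeq's promoter table uses, read 5′ to 3′ along the gene's strand (GRCm38.p6, the assembly known as mm10). Tgfbr2 and Ltbp2 are shown because they are markers of this comparison, and Rab6b, Skint3 and Skint9 because they were among the genes lowest in the Tbr libraries relative to BK. Capitals mark matches to CAGAC, the core of the SMAD binding element, searched on both strands, so that GTCTG marks a match on the other strand. This motif was present in 42.1% of 31396 promoters of that length, GGAATG, the TEAD motif, in 12.5%, and TGANTCA, the AP-1 motif, in 6.77%.
Tgfbr2, chr9:116175364-116175613, minus strand: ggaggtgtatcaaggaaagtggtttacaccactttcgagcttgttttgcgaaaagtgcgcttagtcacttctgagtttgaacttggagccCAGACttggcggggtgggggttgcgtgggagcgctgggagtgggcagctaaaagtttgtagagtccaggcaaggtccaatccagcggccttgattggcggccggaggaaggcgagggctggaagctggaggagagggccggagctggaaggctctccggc
Ltbp2, chr12:84876492-84876741, minus strand: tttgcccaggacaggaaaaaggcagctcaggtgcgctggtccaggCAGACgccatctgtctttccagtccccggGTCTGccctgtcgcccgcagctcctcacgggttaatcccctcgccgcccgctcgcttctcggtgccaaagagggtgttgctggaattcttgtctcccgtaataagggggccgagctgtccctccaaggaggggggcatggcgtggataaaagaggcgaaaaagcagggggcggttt
Rab6b, chr9:103111824-103112073, plus strand: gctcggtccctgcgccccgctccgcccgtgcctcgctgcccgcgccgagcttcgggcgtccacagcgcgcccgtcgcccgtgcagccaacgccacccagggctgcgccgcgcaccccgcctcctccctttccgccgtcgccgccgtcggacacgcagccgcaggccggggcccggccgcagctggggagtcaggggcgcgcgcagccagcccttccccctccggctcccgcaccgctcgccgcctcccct
Skint3, chr4:112231995-112232244, plus strand: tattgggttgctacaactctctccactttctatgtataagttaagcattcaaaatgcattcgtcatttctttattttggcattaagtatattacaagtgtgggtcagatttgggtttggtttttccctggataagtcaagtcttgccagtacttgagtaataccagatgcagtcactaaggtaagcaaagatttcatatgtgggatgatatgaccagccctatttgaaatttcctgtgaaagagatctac
Skint9, chr4:112433986-112434235, minus strand: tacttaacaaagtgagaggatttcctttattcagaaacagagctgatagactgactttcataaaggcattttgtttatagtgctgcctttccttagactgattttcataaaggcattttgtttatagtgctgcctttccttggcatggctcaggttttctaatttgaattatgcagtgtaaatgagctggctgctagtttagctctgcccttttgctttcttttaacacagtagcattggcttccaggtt
Tgfbr2 held 1 match to the SMAD core and Ltbp2 held 2. None of the 3 motifs matched in the Rab6b, Skint3 or Skint9 window. Other lower genes did hold matches: Skint4 and Col6a2, with 2 windows each, both had 1 match to the TEAD motif in one window and 1 to the SMAD core in the other. A match is a description of the letters and not a bound site.

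Open chromatin in the series was measured by ATAC-seq in unlabelled HFSCs and EpdSCs, with 1 peak list for each, so these peaks describe the promoters without the Tbr label. The ATAC mice were of a mixed CD1/B6 strain at postnatal day 50, not of strain B6 at day 60 as for the RNA libraries. The Tgfbr2 promoter overlapped an authors' peak of 8.3-fold enrichment in HFSCs and of 7.95-fold in EpdSCs. The Ltbp2 promoter overlapped a peak of 7.25-fold in HFSCs and no EpdSC peak. The Rab6b promoter overlapped peaks of 5.55-fold in HFSCs and 3.81-fold in EpdSCs. The Skint3 and Skint9 promoters overlapped no peak in either list, although both genes were expressed in every unlabelled library.

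The libraries held between 14216472 counts, in Tbr HFSCs, and 36425082 counts, in 1 of the BK EpdSC libraries. The 10 most abundant genes took 7.36% to 13.2% of counts. Levels are given as CPM, the counts scaled by each library's TMM-adjusted total. On the log2 CPM scale, the 2 BK HFSC libraries correlated across genes at 0.983 and the 2 BK EpdSC libraries at 0.957, and each Tbr library correlated with the BK libraries of its own lineage at 0.926 to 0.966. These are descriptions across genes, which are not independent replicates. Lineage markers followed the sort labels: Cd34 stood at 1090 CPM in Tbr HFSCs and 3.61 CPM in Tbr EpdSCs, Lhx2 at 291 and 2.96 CPM, and Ly6a, which encodes Sca1, at 97.2 and 430 CPM. Keratinocyte genes were high in both Tbr libraries, with Krt5 at 13200 and 21100 CPM and Trp63 at 1220 and 1710 CPM. In sorted bulk samples like these, fewer cells of a type and less RNA per cell cannot be told apart.

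Of 14398 autosomal genes tested with edgeR's quasi-likelihood test with lineage as a block, 58 (0.403%) differed between Tbr and BK libraries at a Benjamini-Hochberg adjusted p under 0.05. All 58 had the same sign in both lineages. Of these, 38 (0.264% of genes tested) were higher in the Tbr libraries and 20 (0.139%) were lower. The called genes had log2 fold changes of at least 1.82 when higher and of -1.61 or below when lower. The group spread left little room beyond the threshold: 38 of the 58 calls had an adjusted p above 0.04, and 3 had one under 0.01. A total of 4772 genes had an unadjusted p under 0.05. The test of whether the Tbr difference itself differed between lineages gave 0 genes with edgeR, with 318 at an unadjusted p under 0.05. The number of calls turned on individual libraries: it was 16 without BK HFSC library 1, 24 without BK HFSC library 2, 1630 without BK EpdSC library 1, 5676 without BK EpdSC library 2 and 0 without either Tbr library, the last with 1362 (Tbr HFSC left out) or 2165 (Tbr EpdSC left out) genes at an unadjusted p under 0.05. With DESeq2 the same comparison called 2981 genes, and all 58 were among them.

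**Figure D1:**
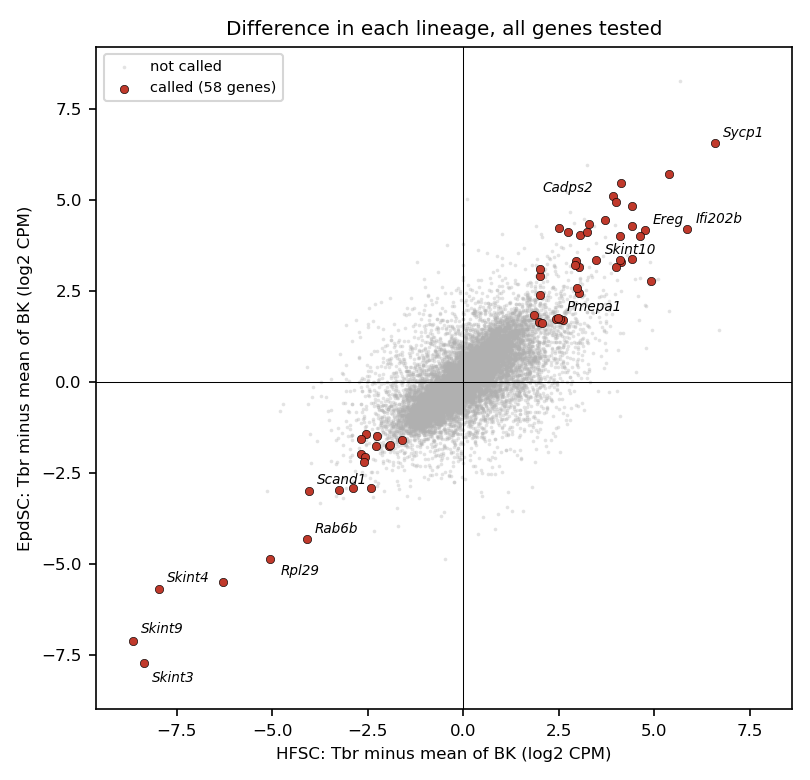
Difference between the Tbr library and the mean of the 2 BK libraries in HFSCs (horizontal axis) and in EpdSCs (vertical axis), in log2 CPM, for all 14398 genes tested, with the 58 called genes in red. The called genes lie far out along the diagonal. A call required the same sign in both lineages, so their place there is part of the selection. Of all genes tested, 78.9% had the same sign in both lineages.

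A shift in the same direction in both lineages was common over all genes. Each Tbr library lay beyond both BK libraries of its lineage, in the same direction, for 58.3% of genes tested, 28.6% above and 29.7% below, and the median log2 fold change was -0.006. Library sets without the label also differed: BK against CL libraries, with no Tbr library, gave 249 calls in 13875 genes (1.79%) under the same rule, 0.901% higher and 0.894% lower in BK. Of the 58 called genes, 7 were among those, namely Pde4b, Plet1, Skint2, Angpt1, Coq10b, Ifrd1 and Diras2, chosen here for that overlap after their values were seen. In all 7 the difference of BK from CL ran opposite to that of Tbr from BK, so BK lay on one side of both other sets. Angpt1, for example, was at 4.18 for Tbr against BK and at -3.81 for BK against CL. Against CL, Plet1, Skint2, Angpt1 and Coq10b were not called, while Pde4b, Ifrd1 and Diras2 were. Both comparisons share the BK libraries. When each Tbr library was set against all 4 unlabelled libraries of its lineage, BK and CL, 35 of the 38 higher genes stayed above all of them (18% of all genes tested did) and 20 of the 20 lower genes stayed below all of them (18.9%). Since all 58 already lay beyond both BK libraries, the closer reference is the share among genes that did so, of which 62.9% were also beyond both CL libraries in each direction. The 3 exceptions were Plet1, Angpt1 and Coq10b, whose Tbr level did not exceed every CL level in at least 1 lineage. Against the CL libraries alone, which share the Tbr libraries with the main comparison, 3031 of 14734 genes (20.6%) were called.

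The marker named for the label, Tgfbr2, did not pass the test. Its level was 61.3 CPM in Tbr HFSCs against 78.8 and 75.5 CPM in BK HFSCs, and 148 CPM in Tbr EpdSCs against 218 and 193 CPM in BK EpdSCs. Both Tbr libraries were thus the lowest of their lineage among these 6. The log2 fold change was -0.40 ± 0.22 (SE, n = 2 and 4 libraries, edgeR adjusted p = 0.232). On a scale common to all libraries used, the CL levels were 71.3 and 103 CPM in HFSCs and 149 and 137 CPM in EpdSCs, beside 62.5 and 150 CPM in the Tbr libraries, so that the EpdSC value did not stand apart from CL. The tumour libraries, TbrKO ones included, held 201 to 486 CPM. These counts are sums over the whole gene, and since the deleted part is not given, a transcript that lacks an exon could still be counted in them. The gene-level count therefore does not check the label.

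Ctgf and Ltbp2 encode proteins of the extracellular matrix. Ctgf encodes a matricellular growth factor that TGF-beta induces, and its level was 2320 CPM in Tbr HFSCs against 2170 and 2670 CPM in BK HFSCs. In EpdSCs it was far lower in every library, at 18.9 CPM in the Tbr library and 11.8 and 16.2 CPM in the BK libraries, and the log2 fold change was 0.19 ± 0.29 (edgeR adjusted p = 0.662). The Tbr HFSC value lay between the BK values, and without the Tbr EpdSC library the estimate turned to -0.05.

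Ltbp2 encodes a protein of elastic microfibrils. It is named for its family, and the name does not show that it binds latent TGF-beta. Ltbp2 stood at 209 CPM in Tbr HFSCs and at 569 and 663 CPM in BK HFSCs. In EpdSCs it stood at 0.773 CPM in the Tbr library and at 2.11 and 6.5 CPM in the BK libraries. Both Tbr libraries were below their lineage's BK libraries, by -1.90 ± 0.49 on the log2 scale, and the test was not passed (edgeR adjusted p = 0.0692). The adjusted p was 0.00139 with DESeq2, 0.0376 without BK EpdSC library 1 and 0.00761 without BK EpdSC library 2. In the CL libraries Ltbp2 was at 204 and 166 CPM in HFSCs and 3.51 and 6.71 CPM in EpdSCs, beside 213 and 0.783 CPM in the Tbr libraries on that common scale, so the Tbr HFSC level lay above both CL levels. Against CL the log2 fold change was -0.68 (adjusted p = 0.411).

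The wider TGF-beta pathway was read from 5 lists with 47 genes, of which 46 were tested. A single gene, Pmepa1, was called higher and 0 were called lower, and 11 members lay above and 17 below both BK libraries in both lineages, where 28.6% and 29.7% of all genes tested did. Pmepa1 encodes a membrane protein that TGF-beta induces and that restrains Smad signalling. Its level was 27.0 CPM in Tbr HFSCs against 5.42 and 4.17 CPM in BK HFSCs, and 51.6 CPM in Tbr EpdSCs against 13.4 and 17.1 CPM in BK EpdSCs. Each Tbr value exceeded both of its BK values, and the CL values of 3.32 to 11.5 CPM were also lower in each lineage. The log2 fold change was 2.13 ± 0.27 (edgeR adjusted p = 0.0406) against BK and 2.25 ± 0.31 (adjusted p = 0.0073) against CL, and the call against BK was lost without BK HFSC library 1 (adjusted p = 0.101) or library 2 (adjusted p = 0.0954).

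Among the ligands, 5 of 6 listed were tested, 0 were called and the median log2 fold change was -0.89. Tgfb1 was the lowest of them at -1.58 ± 0.36 (edgeR adjusted p = 0.0624), with 12.3 CPM in Tbr HFSCs against 37.2 and 32.0 CPM, and 20.6 CPM in Tbr EpdSCs against 90.9 and 39.6 CPM. Among 8 receptors 0 were called, with log2 fold changes from -0.998 for Acvrl1, a type I receptor best known from endothelium, to 0.62 for Tgfbr3, the co-receptor betaglycan. Tgfbr1 was at 0.53 ± 0.31 (adjusted p = 0.257).

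The 9 Smads and Smad inhibitors, with 0 called, ranged from -0.87 for the inhibitory Smad6 to 1.55 for Skil. Skil, a co-repressor of Smads that TGF-beta itself induces, was at 111 CPM in Tbr HFSCs against 48.4 and 32.5 CPM and at 128 CPM in Tbr EpdSCs against 19.7 and 62.1 CPM (adjusted p = 0.0712). Its relative Ski was at -0.86 ± 0.25 (adjusted p = 0.0798). Skil and Ski thus lay on opposite sides of BK, neither past the threshold.

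Of the 9 genes listed under latent binding and activation, Ltbp2 among them by its family name, 0 were called. Ltbp3 and Ltbp4, which tether latent TGF-beta to the matrix, were at -1.10 ± 0.30 (adjusted p = 0.0717) and -1.34 ± 0.30 (adjusted p = 0.0614), and each was lower in both lineages than all BK and CL libraries. Against CL both were called, at -0.90 ± 0.15 (adjusted p = 0.0106) for Ltbp3 and -1.22 ± 0.23 (adjusted p = 0.0137) for Ltbp4. Thbs1, a secreted activator of latent TGF-beta, was at 1.45 ± 0.44 (adjusted p = 0.0825) with 1120 CPM in Tbr HFSCs and 4780 CPM in Tbr EpdSCs.

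The 15 targets ranged from -1.93 for Col4a2 to 2.13 for Pmepa1, with a median of 0.19. Col4a2, a chain of basement membrane collagen, was at 25.6 CPM in Tbr HFSCs against 133 and 164 CPM and at 14.9 CPM in Tbr EpdSCs against 41.7 and 36.0 CPM (adjusted p = 0.0575). Of the targets 4 lay above and 4 below both BK libraries in both lineages, close to the 28.6% and 29.7% of all genes tested. Against the CL libraries, 4 of the 46 pathway genes were called higher and 9 lower, where 9.33% and 11.2% of all genes tested were.

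**Figure D2:**
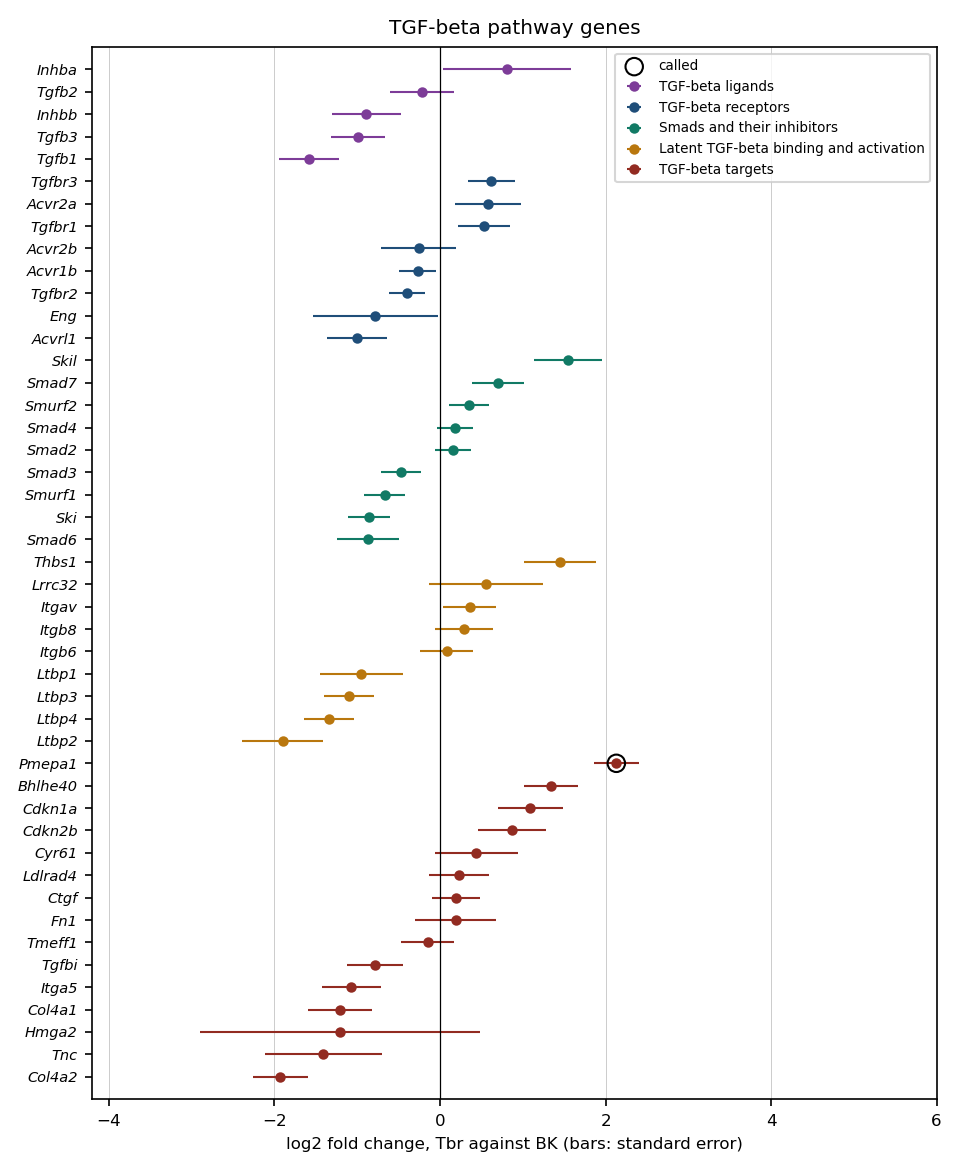
Log2 fold change of the Tbr against the BK libraries, with its standard error, for the 46 TGF-beta pathway genes tested, coloured by role and ordered within a role. Pmepa1, at 2.13, carries the circle that marks a called gene, and the other members lie on both sides of 0.

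The named genes below are the 15 higher and the 15 lower calls with the largest log2 fold change among those with a mean of at least 5 CPM in the higher group. The rule also required each Tbr library to lie beyond both BK libraries of its lineage, which all 58 calls did. That separation is therefore part of the selection. The lower named genes are led by 3 genes of the Skint family, which are described first, and by a pair of chromosome 9 genes. Levels are in CPM, with the Tbr value set against the 2 BK values of the same lineage.

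The Skint genes encode membrane proteins of the immunoglobulin superfamily made mainly by keratinocytes and thymic epithelium, and Skint1 is known for selecting the gamma-delta T cells that settle in mouse epidermis. All 11 family members in the table were tested and 6 were called, 3 in each direction, while the other 5 were not. Skint3 was at 0 counts in both Tbr libraries, against 14.9 and 42.4 CPM in BK HFSCs and 12.9 and 20.5 CPM in BK EpdSCs. Skint9 was likewise at 0 counts in both Tbr libraries, against 18.9 and 50.7 CPM in BK HFSCs and 11.3 and 10.3 CPM in BK EpdSCs. With 3 counts taken as the floor for each Tbr library, these were at least 139.7-fold lower for Skint3 and at least 140.5-fold lower for Skint9 (edgeR adjusted p = 0.0243 and 0.0219).

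Skint4 was nearly as low, with 3 counts (0.196 CPM) in Tbr HFSCs and 5 counts (0.215 CPM) in Tbr EpdSCs. The BK levels were 68.6 and 67.3 CPM in HFSCs and 10.2 and 22 CPM in EpdSCs, and the log2 fold change was -7.29 ± 0.65 (edgeR adjusted p = 0.0156). All 8 unlabelled libraries, BK and CL, thus expressed these 3 genes, and the CL libraries held between 30.7 and 200 CPM of them.

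Skint2, Skint8 and Skint10 were higher in both Tbr libraries. Skint10 was at 262 CPM in Tbr HFSCs against 12 and 46.0 CPM, and at 87.9 CPM in Tbr EpdSCs against 11 and 6.65 CPM (log2 fold change 3.24 ± 0.47, edgeR adjusted p = 0.0491). Skint8 was at 28.7 CPM in Tbr HFSCs against 1.14 and 2.17 CPM, and at 18.4 CPM in Tbr EpdSCs against 1.04 and 3.15 CPM (3.66 ± 0.49, adjusted p = 0.0417). Skint2 was at 19.2 CPM in Tbr HFSCs against 2.08 and 2.70 CPM, and at 7.30 CPM in Tbr EpdSCs against 1.67 and 0.788 CPM (2.79 ± 0.37, adjusted p = 0.0417). Against CL, Skint10 and Skint8 were called, and Skint2 was not (0.74 ± 0.29, adjusted p = 0.108), its CL HFSC levels being 19.0 and 14.1 CPM. Skint5, which lies outside the naming rule, was at 153 and 160 CPM in the Tbr libraries with an adjusted p of 0.0601 against BK, while Skint1 was at 0.69 ± 0.41 (adjusted p = 0.265).

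**Figure D3:**
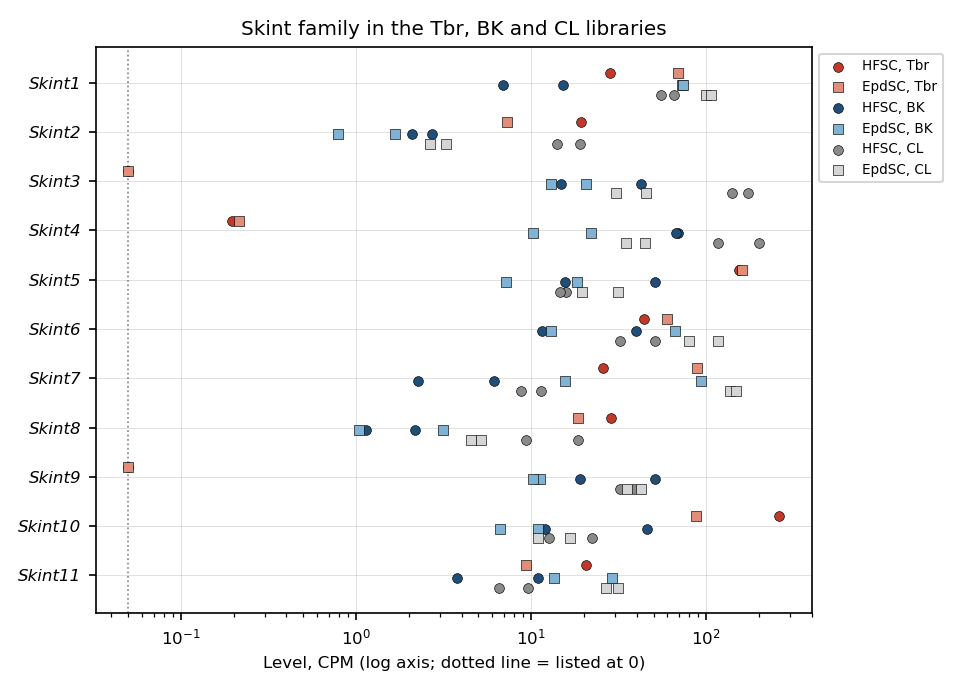
Levels of the 11 Skint genes in CPM on a log axis in each Tbr, BK and CL library, with HFSC libraries as circles and EpdSC libraries as squares. Both Tbr libraries sit at 0 for Skint3 and Skint9 and at 0.196 and 0.215 CPM for Skint4, below all 8 unlabelled libraries, and above the BK libraries of their lineage for Skint2, Skint8 and Skint10.

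The family lies in a block on chromosome 4 (GRCm38.p6), with the 6 called members between Skint8 (chr4:111919555-111950361) and Skint10 (chr4:112710830-112774861). Skint4 (chr4:112072016-112168076), Skint3 (chr4:112232245-112300468) and Skint9 (chr4:112385969-112433985) are consecutive among the called members, with Skint2 (chr4:112613598-112652248) between them and Skint10. The members are close paralogs, so the count table could have divided reads between copies, and each level is uncertain for that reason. For reads that match several copies, the counting rule is not given in the sources used here. All 6 libraries carry the strain label B6, and sequence differences between the animals at this block were not tested.

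Rpl29 and Rab6b had the smallest p-values of all genes tested. Rpl29, a protein of the large ribosomal subunit, was at 1.57 CPM in Tbr HFSCs against 53.5 and 56.2 CPM, and at 1.98 CPM in Tbr EpdSCs against 70.2 and 51.1 CPM. Rab6b, a small GTPase of Golgi transport, was at 3.20 CPM in Tbr HFSCs against 61.0 and 51.5 CPM, and at 1.67 CPM in Tbr EpdSCs against 34.5 and 35.8 CPM. The log2 fold changes were -5.02 ± 0.31 for Rpl29 and -4.26 ± 0.28 for Rab6b (edgeR adjusted p = 0.00353 for both). Against CL they were at -5.24 ± 0.20 (adjusted p = 0.000132) and -3.73 ± 0.41 (adjusted p = 0.00365). Rpl29 has near-identical processed copies elsewhere in the genome, so its count is uncertain. Among the 22 ribosomal protein genes of a separate list 0 were called, with a median log2 fold change of 0.03 and a range from -1.33 to 1.11.

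Rpl29 (chr9:106428889-106431568), Rab6b (chr9:103111667-103185276) and another lower gene, Abhd14a (chr9:106440051-106451203), lie on the chromosome that carries Tgfbr2 (chr9:116087695-116175363). Abhd14a, of the alpha/beta hydrolase fold, was at 11.4 CPM in Tbr HFSCs against 56.8 and 54.5 CPM and at 6.83 CPM in Tbr EpdSCs against 26.0 and 21.1 CPM (log2 fold change -2.03 ± 0.26, edgeR adjusted p = 0.0417). Chromosome 9 held 9 of the 58 called genes (15.5%) and 5.76% of the genes tested, and chromosome 4 held 12 (20.7%) and 6.68%. The chromosome 4 calls include the 6 of the Skint block, and those of chromosome 9 include the neighbouring Casp1, Casp4 and Casp12. These shares therefore do not count independent positions. In a window of 15 Mb to each side of Tgfbr2, chosen after the positions were seen, 4 of 238 genes tested were called (1.68%, against 0.403% of all genes). Relative to Tgfbr2 these lie at -13.0 Mb (Rab6b), -9.7 Mb (Rpl29), -9.6 Mb (Abhd14a) and -5.1 Mb (Ltf). Unlike the others, Ltf was higher in the Tbr libraries (log2 fold change 8.23). The median log2 fold change of all genes in the window was -0.29. The 5 other called genes of chromosome 9 lay farther off, between -110.8 and -64.0 Mb. Whether the genotype around Tgfbr2 differed between the groups was not tested.

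The other 10 of the 15 lower genes belonged to none of the lists. Scand1, which encodes a SCAN-domain protein, was at 2.87 CPM in Tbr HFSCs against 46.8 and 50.5 CPM and at 3.91 CPM in Tbr EpdSCs against 49.9 and 20.1 CPM (log2 fold change -3.58 ± 0.48, edgeR adjusted p = 0.0417). Lrfn1, a synaptic adhesion protein, was at -3.05 ± 0.41 and the orphan receptor gene Gpr153 at -2.73 ± 0.38, both from BK levels below 19 CPM. Zfp771, Ccdc85c and Abhd14a, of which Zfp771 encodes a zinc finger protein, were expressed in both lineages and fell by 2.46, 2.32 and 2.03 on the log2 scale.

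In 4 of these lower genes every HFSC library held at least 10 times the level of the EpdSC libraries of its group. Col6a2, a chain of collagen VI, was at 46.3 CPM in Tbr HFSCs against 266 and 288 CPM, and at 0.429 CPM in Tbr EpdSCs against 1.57 and 2.71 CPM (log2 fold change -2.48 ± 0.33, edgeR adjusted p = 0.0417). Sardh, the mitochondrial sarcosine dehydrogenase, was at 34.3 CPM in Tbr HFSCs against 238 and 206 CPM, and at 0.859 CPM in Tbr EpdSCs against 2.67 and 2.76 CPM (-2.26 ± 0.33, adjusted p = 0.0480). Scx, the tendon transcription factor scleraxis, was at 20 CPM in Tbr HFSCs against 99.7 and 92.1 CPM, and at 1.33 CPM in Tbr EpdSCs against 4.56 and 3.30 CPM (-1.95 ± 0.30, adjusted p = 0.0496). Diras2, a Ras-related GTPase, went from 54.7 and 55.0 CPM in BK HFSCs to 9.33 CPM in Tbr HFSCs, with under 2 CPM in every EpdSC library. Against CL the differences were smaller, at -0.70 ± 0.36 (adjusted p = 0.209) for Col6a2 and -1.15 ± 0.36 (adjusted p = 0.0570) for Scx, which were not called, and -1.56 ± 0.32 (adjusted p = 0.0174) for Sardh and -1.14 ± 0.29 (adjusted p = 0.0326) for Diras2, which were. The other 5 lower genes, outside the naming rule, were Prdm16, Fam171a2, Lrfn4, Limk1 and Myo7a, and Prdm16, at 0 counts in both Tbr libraries, was at least 29.5-fold lower with a floor of 3 counts per library.

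**Figure D4:**
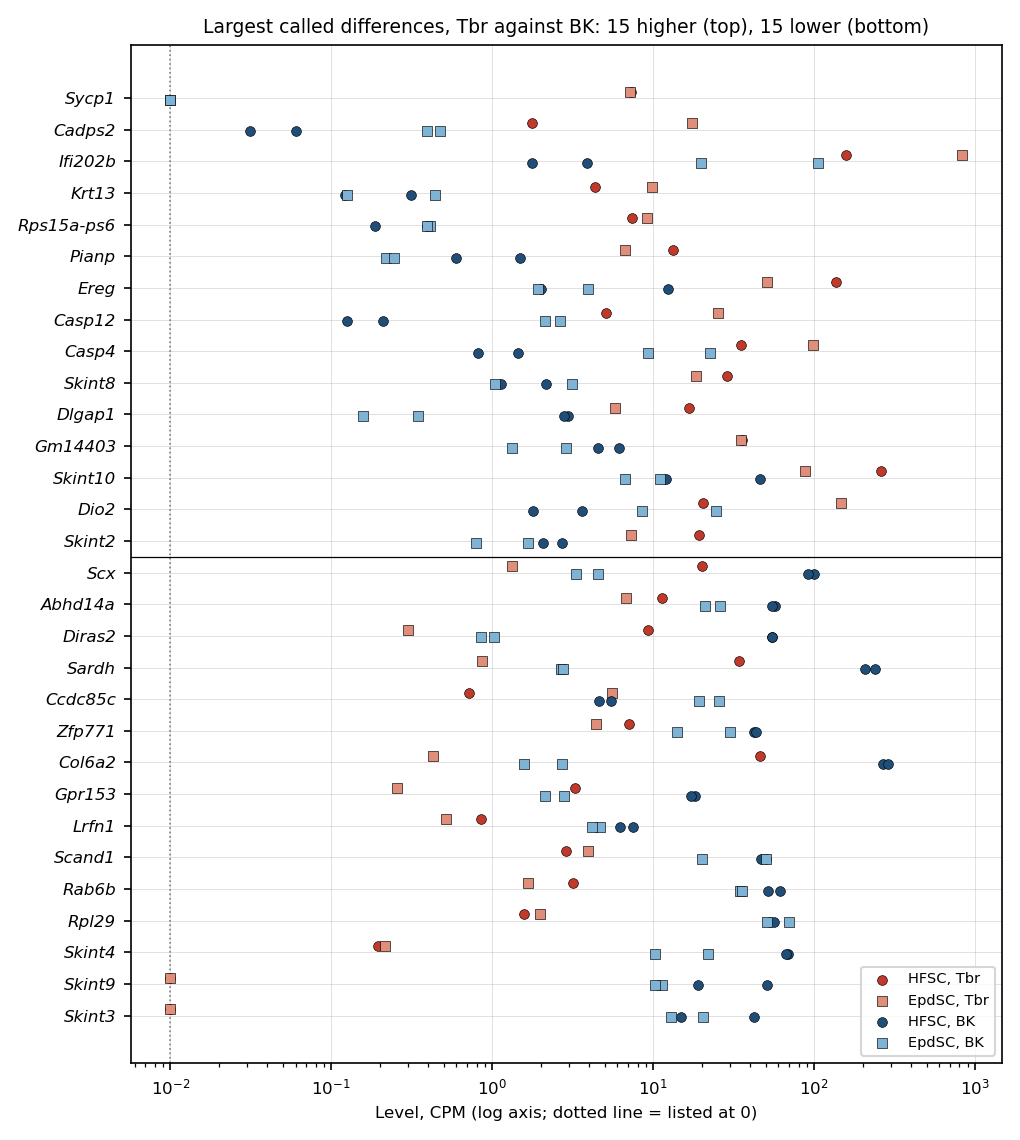
Levels in CPM on a log axis of the 15 higher and 15 lower named genes in the 6 libraries, with HFSC libraries as circles, EpdSC libraries as squares, Tbr in red shades and BK in blue shades. In every row each Tbr library lies beyond both BK libraries of its own lineage, as the naming rule required. Sycp1, Skint3 and Skint9 have a group at 0.

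The higher genes included caspases that sit side by side on chromosome 9, at its other end from Tgfbr2. Casp4 encodes the caspase that senses cytosolic lipopolysaccharide, and Casp12 a related inflammatory caspase. Casp4 (chr9:5308849-5336791) was at 35.1 CPM in Tbr HFSCs against 0.813 and 1.44 CPM, and at 98.4 CPM in Tbr EpdSCs against 9.24 and 22.6 CPM (log2 fold change 3.87 ± 0.58, edgeR adjusted p = 0.0496). Casp12 (chr9:5345442-5373034) was at 5.09 CPM in Tbr HFSCs against 0.211 and 0.126 CPM, and at 25.4 CPM in Tbr EpdSCs against 2.64 and 2.12 CPM (4.06 ± 0.42, adjusted p = 0.0219). Their neighbour Casp1 (chr9:5298517-5307281), the caspase that cleaves pro-interleukin-1 beta, falls outside the naming rule and is given for its position. It was at 67.7 and 71.1 CPM in the Tbr libraries against 9.06 to 18.5 CPM in the BK libraries (2.48 ± 0.26, adjusted p = 0.0239). All 3 were also called against CL.

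Ifi202b, an interferon-inducible DNA-binding protein, reached the highest level of the 15 higher named genes. It was at 157 CPM in Tbr HFSCs against 1.78 and 3.86 CPM, and at 834 CPM in Tbr EpdSCs against 19.7 and 105 CPM (log2 fold change 4.86 ± 0.74, edgeR adjusted p = 0.0496). Against CL the log2 fold change was 2.71 ± 0.17 (edgeR adjusted p = 0.000481). Ifi202b belongs to a family of close paralogs, so its count is uncertain. Of the 14 genes of an interferon-response list 0 were called, the median was -0.49, and 0 lay above and 5 below both BK libraries in both lineages (28.6% and 29.7% of all genes).

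Ereg and Dio2 encode extracellular signals or their activators. Ereg, the EGF receptor ligand epiregulin, was at 136 CPM in Tbr HFSCs against 2.02 and 12.3 CPM, and at 50.8 CPM in Tbr EpdSCs against 3.93 and 1.92 CPM. Its log2 fold change was 4.18 ± 0.60 (edgeR adjusted p = 0.0480), and 6.15 ± 0.34 (adjusted p = 0.000409) against CL, where no library was above 2.69 CPM. Dio2, the deiodinase that makes active thyroid hormone, was at 20.3 CPM in Tbr HFSCs against 3.62 and 1.79 CPM and at 146 CPM in Tbr EpdSCs against 8.49 and 24.7 CPM (3.03 ± 0.43, adjusted p = 0.0479).

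Other higher genes were at low levels in the BK libraries. Sycp1, a protein of the synaptonemal complex of meiosis, was at 7.31 and 7.13 CPM in the Tbr libraries and at 0 counts in all 4 BK libraries, at least 67.7-fold higher with a floor of 3 counts per library (edgeR adjusted p = 0.0406), and 1 of the 4 CL libraries held 4 counts. Cadps2, which primes dense-core vesicles, was at 1.76 CPM in Tbr HFSCs against 0.0603 and 0.0314 CPM, and at 17.5 CPM in Tbr EpdSCs against 0.471 and 0.394 CPM (log2 fold change 5.25 ± 0.41, adjusted p = 0.00876). Krt13, a keratin of non-cornified stratified epithelia, was at 4.37 and 9.88 CPM in the Tbr libraries and at no more than 0.443 CPM in the BK libraries (4.76 ± 0.58, adjusted p = 0.0346). Pianp (4.21 ± 0.49) and Dlgap1 (3.49 ± 0.51), known from neurons, stood at 13.3 and 16.7 CPM in Tbr HFSCs and at 6.70 and 5.80 CPM in Tbr EpdSCs, against at most 1.48 and 2.95 CPM in BK. The pseudogene Rps15a-ps6 (4.57 ± 0.42) and the noncoding Gm14403 (3.44 ± 0.41, from 1.32 to 6.12 CPM in BK to 35.6 and 34.9 CPM) also rose, and the count of a pseudogene is uncertain because its reads can match the parent gene.

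The remaining 23 higher genes, outside the naming rule except for Pmepa1, are given by example, chosen after their values were seen. Ltf, which encodes the antimicrobial protein lactoferrin, was at 48 and 118 counts in the Tbr HFSC and EpdSC libraries and at 0 or 1 count in each BK library. The mucin Muc4 was at 19 and 35 counts in the Tbr libraries and at 0 or 1 count in each BK library. Tmprss11a and Tmprss11bnl, serine proteases of squamous epithelia, Wfdc2 and Serpinb3a, protease inhibitors, and Wisp1, a relative of Ctgf, were each below 0.5 CPM in every BK library and between 0.653 and 6.57 CPM in the Tbr libraries. These genes are low in all 6 libraries, and levels this low rest on 10 to 153 counts per Tbr library. Gt(ROSA)26Sor, the transcript of the Rosa26 locus into which reporters are often placed, was at 109 and 49.7 CPM in the Tbr libraries, between 11.7 and 20.2 CPM in the BK libraries and between 3.77 and 8.96 CPM in the CL libraries (log2 fold change 2.12 ± 0.29, edgeR adjusted p = 0.0452). The labels of these 6 libraries name no Rosa26 allele.

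Over the 36 gene lists, 2 held a called gene, Pmepa1 among the TGF-beta targets and Ereg in the EGF family, and 34 held 0. The lists are therefore described by their values, none of which passed the test unless named above. Of the 8 genes of the EGF family, which bind or form the EGF receptor, 4 lay above and 0 below both BK libraries in both lineages (28.6% and 29.7% of all genes), with a median log2 fold change of 1.73. Epgn, epigen, was at 175 CPM in Tbr HFSCs against 4.61 and 8.66 CPM and at 755 CPM in Tbr EpdSCs against 126 and 252 CPM (3.57 ± 0.64, edgeR adjusted p = 0.0578). Btc, betacellulin, was at 37.3 CPM against 3.13 and 15.9 CPM and at 11.4 CPM against 1.73 and 0.788 CPM (2.57 ± 0.62, adjusted p = 0.0644). Ereg, Epgn and Btc are neighbours on chromosome 5 together with Areg, whose Tbr EpdSC level of 25.6 CPM fell below both BK values. Against CL 5 of the 8 were called higher and 0 lower (9.33% and 11.2% of all genes), with a median of 1.60.

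Of 15 cytokines and chemokines, 12 lay above both BK libraries in both lineages and 1 below (28.6% and 29.7% of all genes), and the median log2 fold change was 1.56. Levels were low for most: Il6 was at 4.18 and 14.3 CPM in the Tbr libraries and at most 2.71 CPM in the BK libraries (4.14 ± 0.81, edgeR adjusted p = 0.0601), and Cxcl1 was at 18.3 and 23.7 CPM against 2.11 to 12 CPM (2.29 ± 0.46, adjusted p = 0.0601). Against CL the median was 0.71, with 4 of 15 called higher and 1 lower (9.33% and 11.2% of all genes). The member below BK was Cxcl14, the most abundant of the list, at 1770 CPM in Tbr HFSCs against 4520 and 4270 CPM and at 442 CPM in Tbr EpdSCs against 661 and 665 CPM (-0.94 ± 0.31, adjusted p = 0.0956).

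Markers of cell stress and of other cell types were read beside these values. Of 14 immediate early genes known to respond to cell dissociation, 7 lay above both BK libraries in both lineages and 0 below (28.6% and 29.7% of all genes), with a median log2 fold change of 1.04 against BK and of -0.43 against CL. Their summed level was 13400 CPM in Tbr HFSCs against 3300 and 2840 CPM in BK HFSCs and 14100 and 22700 CPM in CL HFSCs, while in EpdSCs it was 17100 CPM in the Tbr library, 15000 and 17300 CPM in BK and 25800 and 24100 CPM in CL. The BK HFSC libraries therefore had the lowest sums of these 10 libraries. Of 11 leukocyte genes tested, 4 lay above and 0 below both BK libraries in both lineages, against 28.6% and 29.7% of all genes (median 0.78), and their sum was 200 CPM in Tbr HFSCs and 64.9 CPM in Tbr EpdSCs against 58.2 to 138 CPM in BK and 45.6 to 203 CPM in CL. Ptprc, which encodes CD45, was at 6.27 and 2.06 CPM in the Tbr libraries and 0.440 to 1.38 CPM in BK. The fibroblast list summed to 471 CPM in Tbr HFSCs, below the BK values of 1510 and 1850 CPM, and to 329 CPM in Tbr EpdSCs, between the BK values of 714 and 304 CPM. The CL sums, 412 and 318 CPM in HFSCs and 172 and 141 CPM in EpdSCs, were lower than that of the Tbr library in each lineage. Despite the lower HFSC sum, the median log2 fold change of the 8 fibroblast genes tested was 0.495 against BK. Against CL it was 0.92. Of these 8 genes, 3 lay above and 1 below both BK libraries in both lineages (28.6% and 29.7% of all genes). The defining fibroblast gene Pdgfra was at 1.24 CPM or lower in all 6 libraries. The blood and adipocyte lists had 0 genes with enough counts to test. The part of stress response or other cells in the cytokine and growth factor values was not tested.

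**Figure D5:**
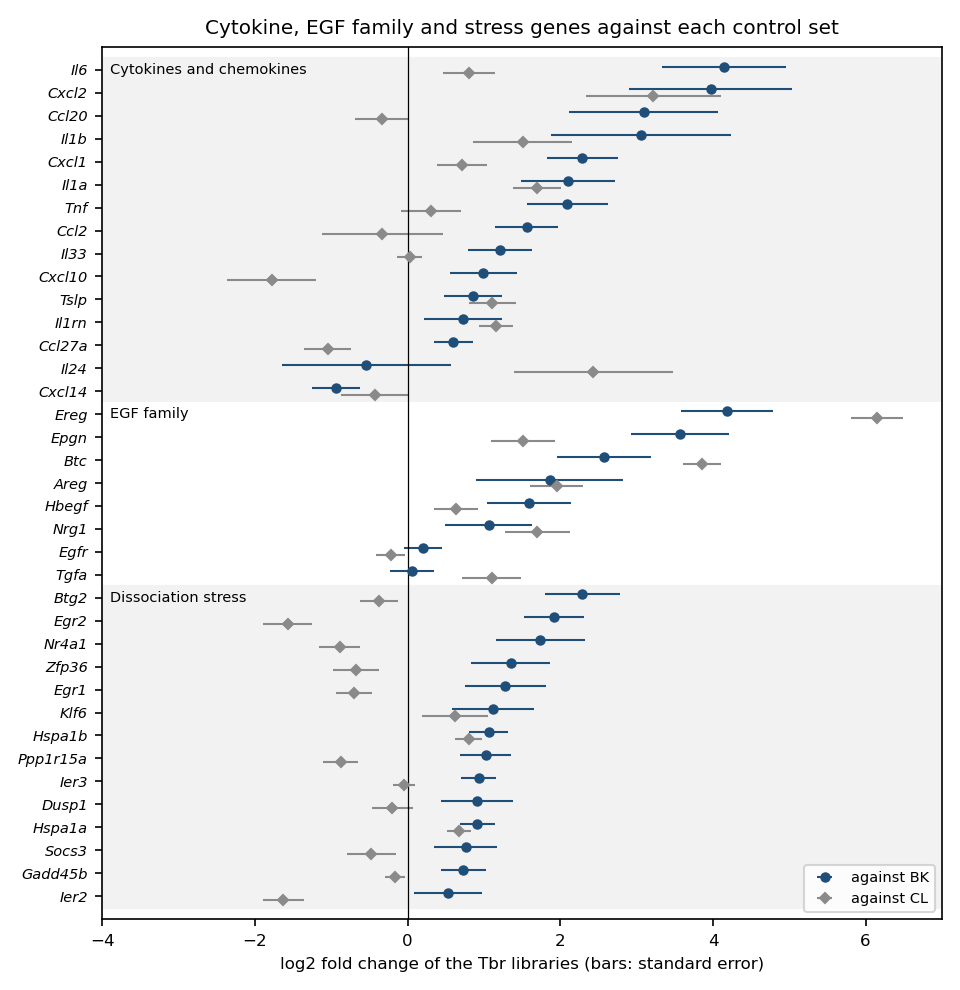
Log2 fold change with its standard error of each cytokine, EGF family and dissociation stress gene in the Tbr libraries against BK (blue circles) and against CL (grey diamonds). Stress genes lie to the right of 0 against BK with a median of 1.04 and mostly to the left against CL with a median of -0.43, whereas the EGF family has medians of 1.73 and 1.60.

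Genes on which the identity of hair follicle stem cells rests were mixed. Of 20 tested, 0 were called, 2 lay above and 9 below both BK libraries in both lineages (28.6% and 29.7% of all genes), with a median log2 fold change of -0.68 against BK and of 0.09 against CL. Cd34, also a sort marker, was at 1090 CPM in Tbr HFSCs against 2740 and 3360 CPM in BK HFSCs and 732 and 469 CPM in CL HFSCs. The Tbr value was thus below BK and above CL. Sox9, a transcription factor of these cells, was at 247 CPM in Tbr HFSCs against 293 and 247 CPM in BK HFSCs.

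In the Wnt pathway 0 of 18 genes were called, with a median of -0.80 against BK and of -1.0 against CL, and 0 lay above and 9 below both BK libraries in both lineages (28.6% and 29.7% of all genes). Wnt7b, a ligand expressed in epidermis and follicle, was at 34.7 CPM in Tbr HFSCs against 94.4 and 102 CPM and at 74.6 CPM in Tbr EpdSCs against 226 and 156 CPM (-1.43 ± 0.26, edgeR adjusted p = 0.0591). Lgr6, an R-spondin receptor that marks epidermal stem cells, was at 34.2 CPM in Tbr HFSCs against 74.7 and 57.9 CPM and at 74.1 CPM in Tbr EpdSCs against 150 and 169 CPM (-1.03 ± 0.24, adjusted p = 0.0626). Against CL 7 of the 18 genes were called lower and 1 higher (11.2% and 9.33% of all genes).

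Genes of epidermal differentiation had a median of 0.78 against BK and of 1.49 against CL, and 7 of 15 lay above and 0 below both BK libraries in both lineages (28.6% and 29.7% of all genes). Against BK 0 were called, and against CL 10 of 15 were called higher (9.33% of all genes). Flg2, a filaggrin family protein of the cornified layer, was at 397 CPM in Tbr HFSCs against 13.7 and 100 CPM and at 135 CPM in Tbr EpdSCs against 13.9 and 3.40 CPM (3.41 ± 0.77, edgeR adjusted p = 0.0614). In the 24 genes of the cell cycle 0 were called, with a median of -0.19.

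The 15 wound keratins and alarm proteins, which keratinocytes make on injury, had 0 calls and a median of 0.07 against BK, while against CL 12 of 14 tested were called higher and 0 lower, with a median of 3.79 (9.33% and 11.2% of all genes). Their summed level was 2240 CPM in Tbr HFSCs, 2650 and 3740 CPM in BK HFSCs and 2460 and 3100 CPM in CL HFSCs. The Tbr HFSC sum thus lay below both CL sums although most members were called higher against CL. A sum is weighted to the most abundant members, so it does not describe the typical member of this list. In EpdSCs the summed level was 1110 CPM in the Tbr library, 3910 and 675 CPM in BK and 429 and 619 CPM in CL. The BK EpdSC libraries thus lay on opposite sides of the Tbr library.

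The promoters of called genes were set beside the unlabelled ATAC peaks. Of 11151 tested genes with a promoter in the reference table, 81.1% overlapped an HFSC peak and 60% an EpdSC peak. Among the called genes with an entry, 39.3% and 42.9% of 28 higher genes and 68.8% and 37.5% of 16 lower genes did. The peaks come from unlabelled cells, and the called higher genes included some with few or no counts in the BK libraries. Genes were not matched for level, so a low share with a peak could follow from how they were selected. Nothing about the label is read from these shares. The GC content of these promoters, taken over the whole entries, had a median of 47.5% for the higher genes, 60.8% for the lower genes and 60.3% for all tested. Over all tested genes, those in the lowest quartile of promoter GC, from 28.7% to 54.3%, had a median log2 fold change of 0.22 and held 19 of the 28 higher genes, while the medians of the other quartiles were -0.12, -0.16 and -0.03. Only the lowest quartile thus had a positive median, and the medians did not fall steadily with GC. The lowest quartile also held 4 of the 16 lower genes, whose median GC was close to that of all tested. The part of base composition in the calls was not tested.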

How the data were processed

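The deposited series table holds raw read counts, as whole numbers for each gene and library, that the authors had not scaled. The submitters' processing notes name mm10 and the tools MACS2 2.1.1.20160309, STAR, Picard and Bowtie. Which program counted reads, on which strand and annotation, is not given in the sources used here. Peak lists deposited by the authors give a fold enrichment (a ratio) and a pileup signal per peak, as MACS2 wrote them per the file headers. Each population has 1 list, called on a pooled alignment per the file headers. Overlap with a promoter meant at least 1 base of its whole entry in the promoter table.

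Of 24061 symbols, 99.28% matched 1 reference gene. The row of totals, 1100 X- or Y-linked genes and 5 columns of wounded libraries were left out. Counts were tested with edgeR 4.0.16 (TMM scaling, filterByExpr, quasi-likelihood F test, lineage as a block, Benjamini-Hochberg adjusted p under 0.05, residual degrees of freedom 3). A call also needed the same sign in both lineages. DESeq2 1.42.0 and limma 3.58.1 were alternatives. CL levels and the summed levels of lists were scaled over all 16 libraries used. Single-gene Tbr and BK levels were scaled over the 6 unless given on the common scale. A CL level beside such a single-gene level is therefore on a different scale. Log2 levels used a prior count of 2.

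Named genes were Tgfbr2, Ctgf and Ltbp2, then, among called genes with a mean of at least 5 CPM in the higher group and each Tbr library beyond both BK libraries of its lineage, the 15 with the largest log2 fold change in each direction, and up to 4 called members of each list. The members and lists were chosen with earlier results of these data known. One gene of the TGF-beta target list is not reported here and was left out of the list's counts. A chi-square test of counts, divided by its degrees of freedom, gave 56.4 for the BK HFSC pair and 295.5 for the BK EpdSC pair, so neither pair was 1 library deposited again. On data simulated for this comparison, with 200 genes changed, the test recovered 0% of 2-fold changes (14079 genes), 4% of 4-fold changes (14095 genes) and 74.5% of 8-fold changes (14077 genes, with 8.6% of calls false). The simulated spread was estimated with lineage but without the label, so differences between Tbr and BK libraries were counted as spread. The simulated spread may thus exceed that met by the test, and the recovery rates may be too low.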

Additional observations from a re-analysis of the deposited data

How the results depend on the processing

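The count of called genes, 58 with 38 higher and 20 lower, stayed within 1.5 times of itself with RLE scaling (62, with 40 higher and 22 lower) and with X- and Y-linked genes kept (69, with 41 and 28). It moved by more under every other setting, and the cause was not tested. It was 2981 (1268 higher, 1713 lower) with DESeq2, 183 (100 and 83) with limma voom, 188 (104 and 84) without a filter on low counts, 20 (14 and 6) with a filter of 1 CPM in 2 libraries and 20 (14 and 6) against a 1.5-fold threshold. With 1 mean per group it was 0 (0 and 0) in edgeR, with 3829 genes at an unadjusted p under 0.05. It was 3031 (1374 and 1657) with CL libraries as controls and 764 (329 and 435) with BK and CL libraries together. Leaving out 1 library at a time gave 0 to 5676 calls, with 0 to 2624 higher and 0 to 3052 lower, and where an arm kept 1 library in a lineage it was assumed to vary like the others. Of the 58 genes, DESeq2 kept 58, voom 57, the CL controls 51 and the BK and CL controls 45. The higher share was 65.5%, 42.5% with DESeq2 and 45.3% with CL controls.

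Of 34 named genes, Ctgf alone reversed, to -0.05 without the Tbr EpdSC library (the highest value with 1 library left out was 0.43), and 31 lost their call without either Tbr library or with 1 mean per group. The filter of 1 CPM ended 20 of the calls. Leaving out BK HFSC library 1 ended 19 and library 2 ended 16. No paired analysis was possible because the Tbr libraries carry no replicate number shared with the BK libraries. Depth limits the low genes most, since 1 count was worth more in Tbr HFSCs (14216472 counts) than in any other library of the comparison.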
